A study of Mus musculus with 12 samples.

Results

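RNA of 6 libraries from male neurosphere cultures was compared, 3 treated with 10 μM pravastatin for 24 hours and 3 with vehicle. They are 6 of the 12 libraries of the series; the other 6 are the same treatments in female cultures. The members were taken by sex and treatment as the sample labels give them, and each culture supplied 1 pravastatin and 1 vehicle library (sample codes M3, M4 and M6, called male cultures 1, 2 and 3 here). Neural stem and progenitor cells (NSPCs) were dissociated from the cortex of C57BL/6 mouse embryos at embryonic day 14.5, grown as floating neurospheres and treated at passage 3. The labels give no genetic change in any group, and vehicle was an equal volume of solvent, given as PBS in the methods of the study. The vehicle libraries are re-analysed from an earlier deposited experiment, and the sources used here do not say whether they were prepared together with the pravastatin libraries, so preparation and treatment cannot be told apart. Cells in a neurosphere are a mixture of stem cells, progenitors and cells that have begun to differentiate. In such bulk RNA fewer cells of a type and less RNA per cell cannot be told apart.

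Pravastatin is a hydrophilic statin. Statins block the enzyme that makes mevalonate, the precursor of cholesterol and of the isoprenoid groups that anchor many signalling proteins to membranes. When sterol in the endoplasmic reticulum runs low, SREBP transcription factors move to the nucleus and raise the genes of sterol and fatty acid synthesis and of lipoprotein uptake. The nuclear receptor LXR senses oxidised sterols and drives the genes of sterol export, among them Abca1 and Apoe. Neural progenitors of the embryonic cortex divide quickly, and their transcripts for DNA replication, histones and mitosis follow the share of cells in each phase of the cycle.

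The male libraries held 13353619 to 18422845 reads, with a median of 13851443 for pravastatin and 16400498 for vehicle. Values are given as the authors scaled them, reads over a size factor for the library, and are called normalized values. A count of 0 allows up to 3 reads, or a value of 0.157 to 0.228, a limit for counting error only. Mitochondrial transcripts took 7.77%, 3.67% and 3.77% of the pravastatin values, against 2.90%, 3.28% and 3.00% of the vehicle values in cultures 1, 2 and 3, so that pravastatin library 1 stood apart. All 23 listed markers of neural stem cells and radial glia were above 1 in the 6 libraries, with sums of 11432 to 12607 with pravastatin and 11299 to 13094 with vehicle. Of 11 microglia markers 1 was in the table, of 7 erythroid markers 1, of 9 endothelial markers 5 and of 12 mural and meningeal markers 4. The Y-linked transcripts Ddx3y, Eif2s3y, Kdm5d and Uty were tested and did not pass (adjusted p = 0.109 to 0.955 in limma).

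Pravastatin treatment raised many transcripts above 1.5-fold and lowered few. Of 15221 genes tested, 488 were called higher (3.21%) and 73 lower (0.480%) by limma on log2(value + 0.5) with a term for culture, where a call needed 1.5-fold and an adjusted p under 0.05. This scale understates the change of genes at low values. Without the fold threshold 1537 genes were higher (10.1%) and 1336 lower (8.78%), against 925 and 664 without the culture term. Counts of list members given below are to be read beside these 2 shares. Of the 488 genes, 49 belong to the lists of sterol synthesis, fatty acid synthesis and sterol sensing and uptake, and 439 lie outside them, 349 of these protein-coding. The rise was above 2-fold for 149 genes, 112 of them outside the lipid lists, and the fall above 2-fold for 3. All 3 cultures moved the same way for 486 of the 488 and 72 of the 73. The filter, a value above 1 in at least 3 of the 6 libraries, can be met by 1 treatment alone. The direction of such a gene is then fixed in advance. With a value above 1 needed in all 6 libraries, 403 genes were called higher and 62 lower. The first principal component of the 6 libraries held 51.4% of the variance and separated the treatments.
With values rescaled to equal library totals, 384 genes were higher and 138 lower, so that falls made up 26.4% of the calls, against 13.0% of them with the deposited scaling. With library size alone in edgeR these counts were 428 and 177. The balance of all genes that passed, whatever the fold, depended on scaling and on the variance model. It was 1081 higher and 2511 lower with values rescaled to library totals, 1082 and 2462 with library size alone, 1274 and 1920 with values rescaled to nuclear protein-coding totals, and 599 and 148 without the trend. Without culture 1 limma gave 444 higher and 82 lower. DESeq2 called 318 higher and 36 lower.

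**Figure D1:**
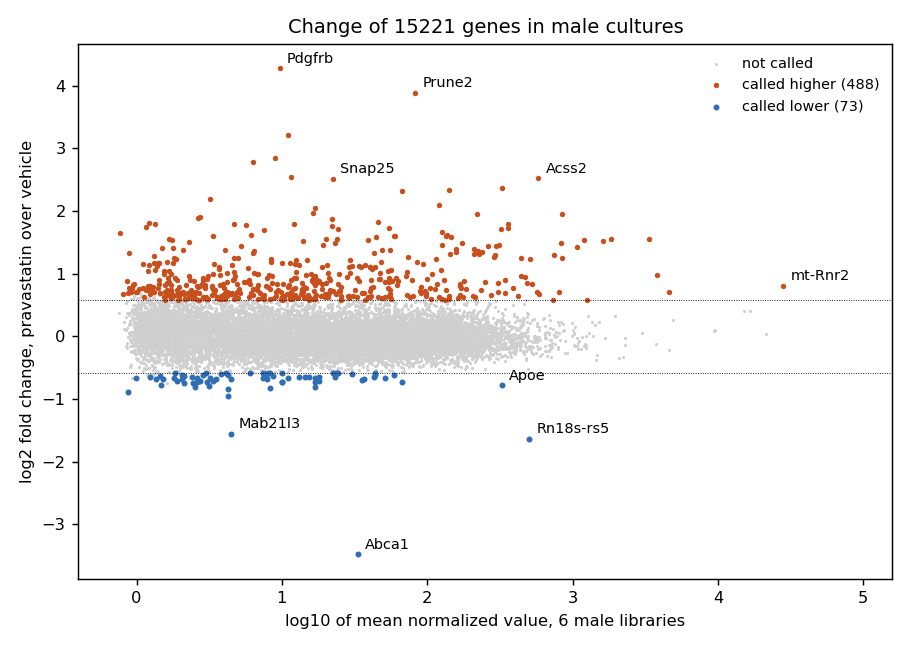
Each point is a gene, with the log10 of its mean normalized value over the 6 male libraries on the horizontal axis and its log2 fold change, pravastatin over vehicle, on the vertical axis. The 488 genes called higher are orange, the 73 called lower are blue, and dotted lines mark 1.5-fold; Abca1 and Rn18s-rs5 lie farthest down among the named genes.

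Abca1, a gene of sterol export, showed the deepest fall. This gene (ENSMUSG00000015243, chromosome 4, 53030787 to 53159895 of GRCm38, minus strand) encodes the transporter that loads cellular cholesterol onto apolipoproteins. It was at 6.23, 5.72 and 3.48 with pravastatin, against 51.7, 62.0 and 70.6 with vehicle in cultures 1, 2 and 3. The groups did not overlap, and in 17.8% of genes tested every pravastatin value lay below every vehicle value. The log2 difference of Abca1 in limma was -3.48 with an SE of 0.16 (adjusted p = 9.50e-11), or a signed fold of -11.2. Apoe (ENSMUSG00000002985, chromosome 7, 19696109 to 19699188) encodes the main apolipoprotein of brain. It was at 204, 279 and 238 with pravastatin, against 340, 453 and 444 with vehicle, again without overlap (log2 fold change -0.78, SE 0.07, adjusted p = 3.23e-07). The export and LXR list did not move one way. Of 15 genes tested 4 fell and 4 rose, with a median log2 fold change of 0.04 beside -0.0028 for all genes. The genes that rose were Lpcat3 (0.64), which remodels phospholipids, and the transporters Abca5 (0.40), Abca2 (0.37) and Abca3 (0.37).
The promoter of Abca1 is shown because it belongs to the gene that fell most. It is the RefSeq sequence from 250 bases before to 50 after the start in GRCm38.p6, on chromosome 4 from 53159846 to 53160145, minus strand, with the E-box CACGTG and the GC box GGGCGG in capitals.
Abca1: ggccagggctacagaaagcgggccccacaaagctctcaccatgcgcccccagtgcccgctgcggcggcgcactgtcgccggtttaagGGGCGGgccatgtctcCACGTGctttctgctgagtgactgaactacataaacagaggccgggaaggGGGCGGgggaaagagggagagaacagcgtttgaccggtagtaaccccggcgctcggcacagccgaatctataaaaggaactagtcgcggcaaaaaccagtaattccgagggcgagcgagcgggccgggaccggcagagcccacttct
Of the genes tested, 9905 have a promoter in that table, and 11.8% of these hold CACGTG and 70.7% hold GGGCGG on either strand. Among the 73 genes called lower 53 have a promoter there, of which 17.0% hold CACGTG and 64.2% GGGCGG.

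The genes called lower had a median vehicle mean of 9.09. These 73 comprised 64 protein-coding genes and 7 pseudogenes, 28 had a vehicle mean under 5, and the median signed fold was -1.58. None belongs to the 3 lipid lists. Mab21l3 (ENSMUSG00000044313, chromosome 3) had the second deepest fall of a coding gene. It was at 1.44, 2.00 and 2.72 with pravastatin, against 6.21, 6.50 and 7.89 with vehicle, with no overlap (log2 fold change -1.55, SE 0.15, adjusted p = 2.24e-06).
Dusp15, a dual-specificity phosphatase, was at 2.81, 2.47 and 2.95 with pravastatin, against 4.73, 5.90 and 6.85 with vehicle. Itpka, a kinase of inositol trisphosphate that binds actin, was at 2.74, 2.71 and 3.17 with pravastatin, against 5.56, 4.68 and 6.58 with vehicle. Neither gene's groups overlapped, and the log2 fold changes were -0.95 (SE 0.15, adjusted p = 0.000469) and -0.85 (SE 0.15, adjusted p = 0.000918).
Kcnj4, an inwardly rectifying potassium channel (chromosome 15, 79483714 to 79505241), was at 5.55, 6.07 and 5.97 with pravastatin, against 9.23, 10.8 and 12.3 with vehicle. The pravastatin values were close together and below every vehicle value (log2 fold change -0.82, SE 0.12, adjusted p = 0.000226). In the potassium channel list 7 genes rose and 2 fell of 22 tested, the other being Kcnj2 (-0.30).
Klf15, a Krüppel-like factor of metabolism, was at 16.6, 12.5 and 8.31 with pravastatin, against 24.0, 19.8 and 20.8 with vehicle (log2 fold change -0.81, adjusted p = 0.000338). It was the only gene of the immediate early and KLF list that fell. Car3, a carbonic anhydrase, was at 43.8, 60.9 and 47.2 with pravastatin, against 97.7, 86.3 and 69.2 with vehicle (log2 fold change -0.73, adjusted p = 0.000106). Fam81a was at 12.2, 12.0 and 13.4 with pravastatin, against 21.1, 21.6 and 20.7 with vehicle (-0.74, adjusted p = 7.64e-05). In all 3 genes every pravastatin value lay below every vehicle value. Klf15 lost its adjusted p under 0.05 in 4 of 21 alternatives of processing and left-out libraries, and Car3 in 1 of 21.
Leaving out 1 gene known by a model number, the further coding genes among the 20 deepest falls were Itga2, a collagen-binding integrin subunit (-0.81), Ass1, argininosuccinate synthase (-0.78), the adhesion protein Nectin4 (-0.75), the inactive rhomboid Rhbdf2 (-0.73), the mitochondrial protein Chchd10 (-0.73) and Perp, a desmosome protein (-0.71). Their vehicle values ran from 1.83 to 15.2. Ass1, at a mean of 0.973 with pravastatin and 1.99 with vehicle, was not above 1 in all 6 libraries, and its vehicle values alone met the filter. The fall of Chchd10 was lost without the culture term (adjusted p = 0.191), and its groups overlapped. Over all alternatives of processing and left-out libraries, Chchd10 lost its adjusted p under 0.05 in 7 of 21. Nectin4, Rhbdf2 and Perp each lost it in 5 of 20, Ass1 in 5 of 19 and Itga2 in 2 of 20. Rn18s-rs5, a copy of ribosomal RNA sequence whose reads may come from many repeats, was at 631, 120 and 123 with pravastatin, against 841, 948 and 351 with vehicle. These groups overlapped, and its fall (-1.63, adjusted p = 0.000477) was lost without the culture term (adjusted p = 0.0762).

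**Figure D2:**
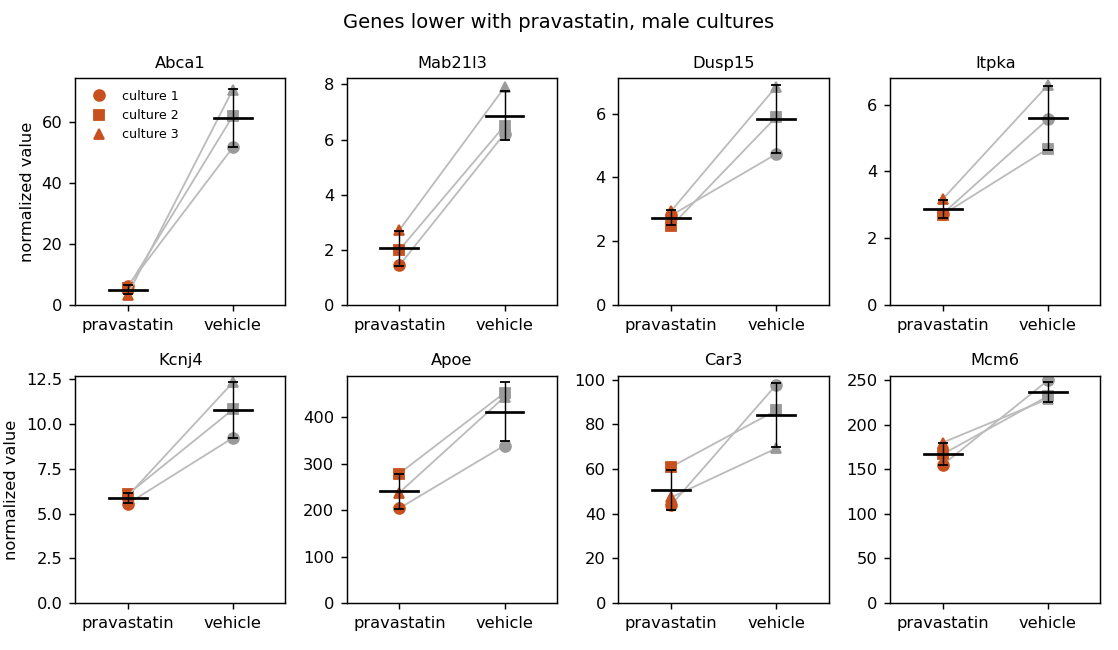
Normalized values of 8 genes that fell, by treatment (pravastatin in orange on the left, vehicle in grey on the right), with lines joining the libraries of a culture, a bar at the mean and whiskers of 1 SD (n = 3 each). All pravastatin values lie below all vehicle values in the 8 genes, from Abca1 at 3.48 to 6.23 against 51.7 to 70.6 to Mcm6 at 155 to 180 against 229 to 250.

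By difference in value rather than in fold, the coding genes with the largest loss among those that passed were Fabp7, Atp5b, Tubb5, Atp5a1 and Mest. Fabp7, the fatty acid binding protein of radial glia, was at 1884, 2045 and 1987 with pravastatin, against 2849, 2456 and 2140 with vehicle. The groups did not overlap, but the fall (-0.32, adjusted p = 0.0157) was lost without the culture term (adjusted p = 0.0707) and without culture 2 (adjusted p = 0.0784). Tubb5, a tubulin of dividing cells, was at 1147, 1254 and 1354 with pravastatin, against 1721, 1564 and 1600 with vehicle (-0.38, adjusted p = 0.00252). Mest, an imprinted gene of growing tissue, was at 418, 412 and 391 with pravastatin, against 660, 555 and 540 with vehicle (-0.52, SE 0.07, adjusted p = 5.49e-05). Both genes were lower in each culture and their groups were apart. Over 21 alternatives of processing and left-out libraries, Tubb5 lost its adjusted p under 0.05 in 4, Atp5b in 5 and Mest in 0. Atp5b, the beta subunit of ATP synthase, was at 1576, 1928 and 2003 with pravastatin, against 2272, 2324 and 2386 with vehicle (-0.35, adjusted p = 0.00449). Atp5a1, its alpha subunit, had -0.29, which was lost without the culture term (adjusted p = 0.0731).

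Genes of DNA replication fell together by a modest amount. Of 38 genes tested 31 fell and 0 rose, against 8.78% of all genes that fell, and the median log2 fold change was -0.38, beside -0.0028 for all genes. All 38 had a negative log2 fold change, from -0.56 to -0.06, so that none reached the 1.5-fold threshold. Mcm6, a subunit of the helicase that opens the DNA duplex, was at 155, 167 and 180 with pravastatin, against 250, 232 and 229 with vehicle. Mcm5 was at 135, 140 and 155 with pravastatin, against 216, 190 and 196 with vehicle. Cdc45, which joins that helicase at the fork, was at 36.9, 38.9 and 41.5 with pravastatin, against 61.9, 54.8 and 55.2 with vehicle. In each of these genes the groups were apart, and the log2 fold changes were -0.50 (adjusted p = 0.000152), -0.48 (adjusted p = 0.000232) and -0.55 (adjusted p = 0.000254), each with an SE of 0.07 to 0.08. The list's median was -0.55 in culture 1, -0.37 in culture 2 and -0.24 in culture 3. Without culture 1 the count was 30, and edgeR on the recovered reads gave 31. It depended on the variance model of limma, since 4 of the 38 passed when variances were not fitted as a trend on the mean, where 148 genes in all fell without the fold threshold. Without the culture term 26 passed, and 15, 16 and 19 when vehicle library 1, 2 or 3 was left out as well.
Mitotic genes moved the same way. Of 30 tested 27 fell and 0 rose, with a median of -0.30. Bub1b, a kinase of the spindle checkpoint, was at 90.7, 94.2 and 97.9 with pravastatin, against 132, 127 and 125 with vehicle. Ccnb1, cyclin B1, was at 40.7, 44.6 and 44.2 with pravastatin, against 61.1, 60.2 and 58.9 with vehicle. Neither gene's groups overlapped, and the log2 fold changes were -0.44 (SE 0.07, adjusted p = 0.000354) and -0.47 (SE 0.08, adjusted p = 0.000464). Kif20a, a kinesin of cell division, had -0.44 and Cdc20, an activator of the anaphase promoting complex, -0.43. Cdc20 overlaps Elovl1 on the other strand, which rose (1.11), and the sources do not spell out how strand was handled in counting. Of the 30 genes 26 fell without culture 1, 8 without culture 2, and 3 without the trend. Without the culture term 21 fell, and 7, 6 and 14 when vehicle library 1, 2 or 3 was left out as well and 8 without pravastatin library 2.
Genes for histones, which are made in S phase, had 47 lower and 0 higher of 57 tested, with a median of -0.40. Hist1h1a, a linker histone, was at 142, 158 and 146 with pravastatin, against 231, 225 and 188 with vehicle. Hist1h1d was at 189, 212 and 211 with pravastatin, against 321, 289 and 274 with vehicle. The groups of both were apart (log2 fold changes -0.52 and -0.53, adjusted p = 0.000102 and 0.000138). Histone genes are near copies of each other and may share reads, so single genes are uncertain. The median was -0.66 in culture 1, -0.30 in culture 2 and -0.24 in culture 3, and 40 fell without culture 1. Only 1 passed without the trend, 38 without the culture term, and 9 and 7 when vehicle library 1 or 2 was left out as well.
Of 21 G1 cyclins, their partners and CDK inhibitors tested 5 fell and 2 rose, and without the culture term 3 fell and 1 rose. The falls were Cdk4 (-0.23), Rbl1 (-0.27) and, with larger changes, Ccne1 and Ccne2, the E cyclins that start S phase, and the transcription factor E2f2 (-0.43). The rises were Cdkn2a (0.37) and Cdkn2b. Ccne1 was at 19.98, 19.3 and 21.0 with pravastatin, against 31.1, 27.4 and 28.1 with vehicle (-0.51, adjusted p = 0.000975). Cdkn2b, an inhibitor of CDK4 and CDK6, was at 54.5, 67.2 and 81.9 with pravastatin, against 34.5, 39.3 and 43.5 with vehicle (0.77, SE 0.08, adjusted p = 2.69e-06). Neither gene showed overlap between groups. Among the 73 genes called lower, Ung, a uracil DNA glycosylase (-0.71), Shmt1, which feeds thymidylate synthesis (-0.67), and Gmnn, geminin (-0.65), also act around S phase and belong to no list used here. They were picked after their values were seen.

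Promoters of the replication and mitosis genes that fell are shown with short elements known from cell cycle genes. These elements were chosen after the falls had been seen, so their shares are a description. The genes that fell are most of their lists, 31 of 38 and 27 of 30 tested, and were not compared with members that did not fall. The shares therefore describe the lists and cannot be tied to the fall with pravastatin. The letters TTTGGCGC or TTTCCCGC, forms of the E2F site, are in capitals for Mcm6 (chromosome 1, 128359656 to 128359955, minus strand) and Mcm5 (chromosome 8, 75109259 to 75109558, plus strand), and TTTGAA, the core of the CHR element, for Bub1b (chromosome 2, 118597961 to 118598260, plus strand) and Cdc20 (chromosome 4, 118437294 to 118437593, minus strand). A capital run may be the reverse complement of the letters given.
Mcm6: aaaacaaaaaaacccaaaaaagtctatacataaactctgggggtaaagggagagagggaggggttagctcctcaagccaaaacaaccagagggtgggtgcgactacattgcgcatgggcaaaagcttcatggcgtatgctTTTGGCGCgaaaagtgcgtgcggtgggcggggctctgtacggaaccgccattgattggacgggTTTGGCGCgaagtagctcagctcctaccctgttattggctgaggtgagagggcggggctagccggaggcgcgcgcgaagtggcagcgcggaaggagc
Mcm5: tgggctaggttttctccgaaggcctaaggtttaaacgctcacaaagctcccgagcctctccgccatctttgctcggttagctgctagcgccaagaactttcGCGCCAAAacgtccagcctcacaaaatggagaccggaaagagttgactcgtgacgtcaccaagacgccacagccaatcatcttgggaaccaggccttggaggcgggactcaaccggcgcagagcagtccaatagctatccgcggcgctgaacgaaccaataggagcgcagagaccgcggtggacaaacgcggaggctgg
Bub1b: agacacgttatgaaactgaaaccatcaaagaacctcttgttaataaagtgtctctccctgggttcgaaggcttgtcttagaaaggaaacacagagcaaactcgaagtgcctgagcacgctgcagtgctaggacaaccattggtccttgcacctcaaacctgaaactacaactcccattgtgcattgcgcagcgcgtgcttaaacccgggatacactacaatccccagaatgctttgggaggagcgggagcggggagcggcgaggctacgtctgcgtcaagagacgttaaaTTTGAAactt
Cdc20: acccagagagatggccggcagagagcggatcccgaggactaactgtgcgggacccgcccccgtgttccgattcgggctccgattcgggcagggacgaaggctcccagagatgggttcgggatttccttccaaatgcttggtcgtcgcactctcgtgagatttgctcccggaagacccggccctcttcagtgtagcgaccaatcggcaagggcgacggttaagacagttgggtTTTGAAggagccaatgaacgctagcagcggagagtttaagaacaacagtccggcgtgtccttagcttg
Shares are of genes with a promoter in the table, and a gene was counted if any of its promoters held the letters. Of 25 such replication genes that fell, 6 hold TTTGGCGC (24.0%) and 5 hold TTTCCCGC, beside 1.19% and 2.42% of the 9905 genes tested. Of 23 such mitotic genes that fell, 18 hold TTTGAA (78.3%), beside 13.7%, and 20 hold CCAAT (87.0%), beside 43.4%. Among the 53 such genes called lower, 4 hold TTTGAA (7.55%) and 2 hold TTTCCCGC.

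**Figure D3:**
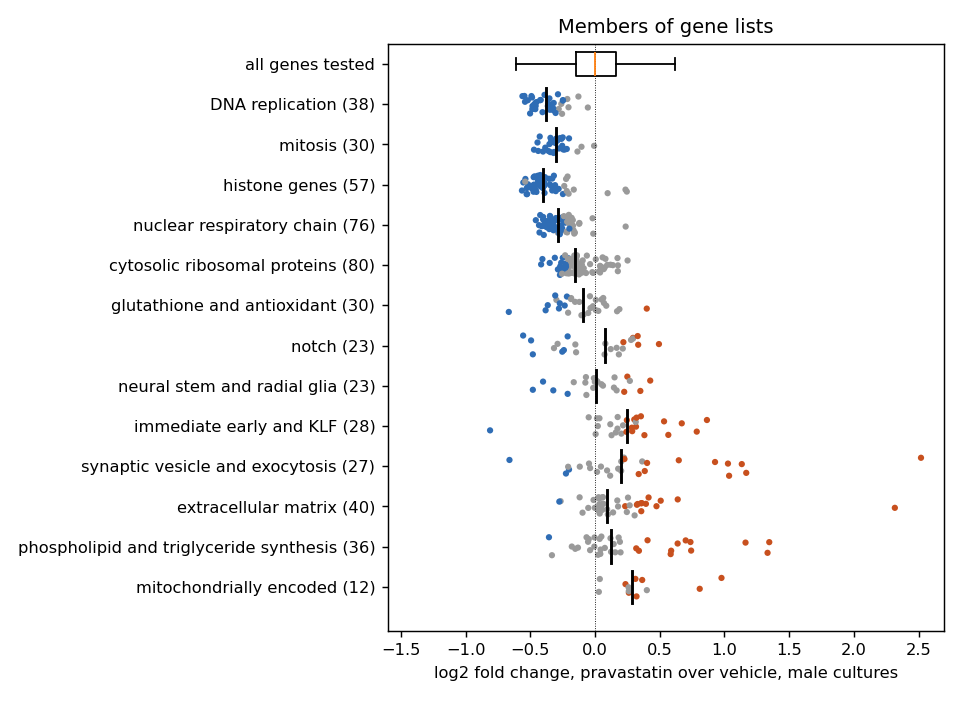
Each point is a gene of the list named at the left (number tested in brackets), placed at its log2 fold change, pravastatin over vehicle, in male cultures. Genes that fell are blue, genes that rose orange and genes that did not pass grey, black bars are list medians, and the box above gives the median, quartiles and whiskers of 1.5 interquartile ranges for all 15221 genes. The replication, mitosis, histone and respiratory chain lists lie left of 0, at medians of -0.38, -0.30, -0.40 and -0.29.

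Respiratory chain subunits encoded in the nucleus fell, while transcripts of the mitochondrial genome were higher. Of 76 nuclear genes tested 51 fell and 0 rose, with a median log2 fold change of -0.29, and without the culture term 27 fell. Ndufb7, a subunit of complex I, was at 55.9, 59.3 and 67.9 with pravastatin, against 83.6, 82.7 and 84.9 with vehicle (-0.46, SE 0.08, adjusted p = 0.000496). Sdhd, a subunit of complex II, was at 119, 140 and 155 with pravastatin, against 179, 184 and 191 with vehicle (-0.43, adjusted p = 0.000518). The groups of both were apart, with the lowest value in pravastatin library 1. The list's median was -0.49 in culture 1, -0.22 in culture 2 and -0.20 in culture 3, and 48 genes fell without culture 1. Only 1 passed without the trend, and without the culture term 5, 1 and 5 fell when vehicle library 1, 2 or 3 was left out and 17 without pravastatin library 2. Genes of cytosolic ribosomal proteins had 19 lower and 0 higher of 80, at a median of -0.15, and 7 lower without the culture term.
Of 12 mitochondrially encoded transcripts 7 rose and 0 fell, with a median of 0.29, and 2 rose without the culture term. mt-Rnr2, the large mitochondrial ribosomal RNA, was at 59762, 25013 and 25830 with pravastatin, against 17796, 21245 and 19000 with vehicle. mt-Rnr1, the small one, was at 11394, 2567 and 2565 with pravastatin, against 2044, 2365 and 2035 with vehicle. In both genes the groups were apart, but most of the difference was in culture 1, at log2 differences of 1.75 and 2.48. Both passed with the culture term (adjusted p = 0.00813 and 0.02) and without culture 1 (0.000171 and 0.000833), and neither passed without the culture term (0.0859 and 0.166). mt-Nd4, a subunit of complex I, was at 294, 222 and 225 with pravastatin, against 198, 191 and 182 with vehicle (0.36, adjusted p = 0.00276). Among abundant messages of that genome mt-Cytb had 0.32 and mt-Co1 0.26, both lost without the culture term (adjusted p = 0.0803 and 0.0884).
Transcript length moved with treatment too. In 5 bins of genes by exon length, from short to long, the median log2 fold change was -0.08, -0.04, -0.01, 0.01 and 0.08, and in culture 1 alone it was -0.17 in the shortest and 0.17 in the longest bin. The nuclear respiratory chain genes have a median exon length of 1.74 kb and the histone genes of 0.539 kb, against 4.02 kb for all genes. Replication and mitotic genes, at 4.18 and 4.52 kb, had negative medians in every bin, including -0.29 and -0.25 in the longest. Those bins held few genes, 5 and 8 in the longest and 3 and 2 in the shortest. The respiratory chain genes had medians of -0.27, -0.32, -0.33, -0.25 and -0.32 in the bins from short to long, the last from 1 gene and the one before from 4. The 48 histone genes in the shortest bin had a median of -0.40 and the 43 ribosomal protein genes there -0.18, beside -0.08 for all genes of that bin. The part of length in the falls of these lists was not tested.

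Outside the lipid lists the 2 largest rises were those of Pdgfrb and Prune2. Pdgfrb (ENSMUSG00000024620), a receptor of platelet-derived growth factor, was at 17.1, 17.3 and 21.9 with pravastatin, against 0.533, 0.365 and 0.575 with vehicle. The vehicle values were a few reads each and all under 1, so Pdgfrb met the filter only through its pravastatin values. Its direction was thereby fixed in advance, and no p-value is given for it. The log2 fold change of 4.28 (SE 0.15) depends on the 0.5 added before the logarithm. Pericytes express Pdgfrb, and the defining mural markers Rgs5, Abcc9 and Kcnj8 were absent from the table. The summed level of the 4 mural and meningeal markers present was 223 to 406 with pravastatin and 212 to 261 with vehicle, nearly all of it from Cspg4, which oligodendrocyte progenitors express too. Cspg4 rose (0.39), Acta2 fell (-0.57), and Col1a1 and Foxc1 did not pass (-0.27 and -0.08). Their part in the result was not tested. Prune2 (ENSMUSG00000039126, chromosome 19, 16956118 to 17223932) was at 139, 145 and 181 with pravastatin, against 9.64, 9.79 and 10.3 with vehicle. Every pravastatin value was many times every vehicle value, and pravastatin values all above vehicle values were found in 15.5% of genes tested (log2 fold change 3.89, SE 0.08, adjusted p = 1.20e-14).
Snap25, a SNARE protein of vesicle fusion, was at 35.9, 37.6 and 41.7 with pravastatin, against 5.62, 6.14 and 7.16 with vehicle (2.52, SE 0.10, adjusted p = 2.17e-11). Slc2a6, a sugar transporter, was at 18.2, 19.1 and 22.7 with pravastatin, against 3.61, 2.49 and 2.93 with vehicle (2.55, SE 0.14, adjusted p = 5.82e-10). Papln, a protein of the extracellular matrix, was at 109, 111 and 117 with pravastatin, against 24.97, 21.8 and 20.01 with vehicle (2.32, SE 0.09, adjusted p = 9.31e-12). The groups were apart in all 3 genes.
Gramd2 was at 14.4, 17.1 and 16.6 with pravastatin, against 2.01, 1.70 and 1.72 with vehicle (2.84, adjusted p = 2.29e-10). Dnaaf3, an assembly factor of ciliary dynein, was at 12.0, 10.3 and 11.9 with pravastatin, against 1.36, 1.09 and 1.20 with vehicle (2.79, adjusted p = 5.45e-10). Dnaaf3 overlaps Tnni3 on the same strand, which rose as well (1.41), and of 16 genes for axonemal dynein and its assembly 1 rose and 1 fell. The others of the 15 largest rises were Myh7b (2.19), the phospholipase Pla2g3 (2.06), the FGF carrier Fgfbp3 (1.97), the protocadherin Pcdha12 (1.90), the ephrin receptor Epha10 (1.89), the small GTPase Rab33a (1.87), the MHC gene H2-Q10 (1.81) and Gm11992 (1.79). Pcdha12 shares exons with its neighbours in the protocadherin cluster, and H2-Q10 has near copies, so both are uncertain. All 15 were higher in each culture, and all 15 passed without the culture term. For Pdgfrb neither is support, since with every vehicle value under 1 its direction was fixed by the filter. Myh7b, Pcdha12, Epha10 and H2-Q10 were not above 1 in all 6 libraries either.

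**Figure D4:**
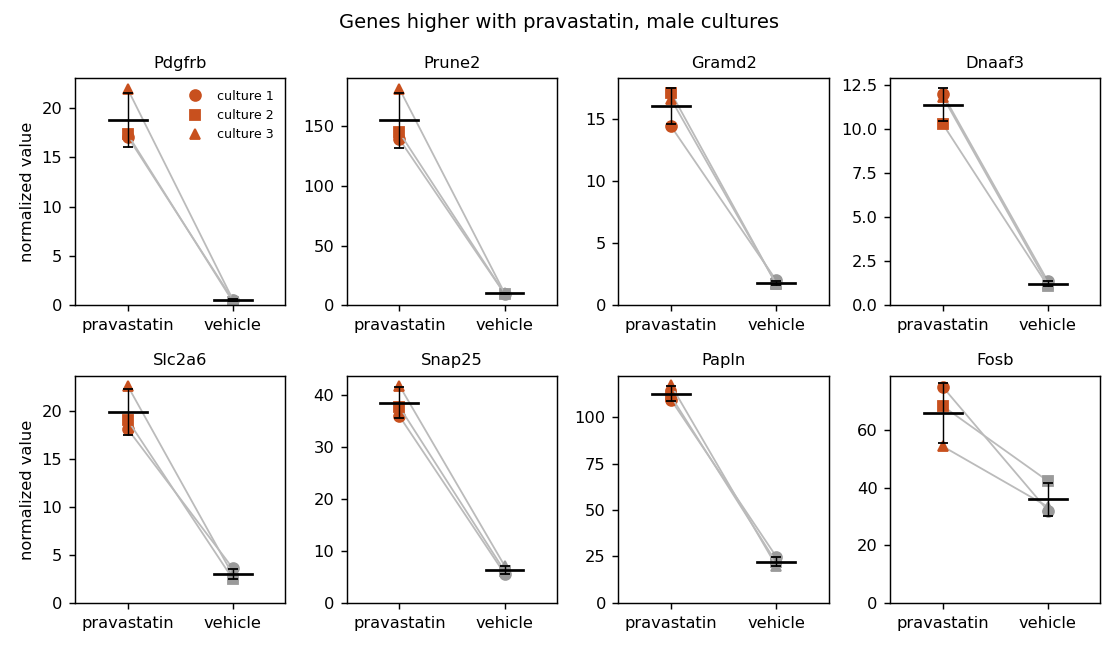
Normalized values of 8 genes that rose, by treatment (pravastatin in orange on the left, vehicle in grey on the right), with lines joining the libraries of a culture, a bar at the mean and whiskers of 1 SD (n = 3 each). All pravastatin values lie above all vehicle values, as for Prune2 at 139 to 181 against 9.64 to 10.3 and for Fosb at 54.4 to 75.1 against 32.1 to 42.4.

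Genes of synaptic vesicles and exocytosis rose in part. Of 27 tested 11 rose and 3 fell, with a median of 0.20, and 7 rose without the culture term. Beside Snap25 they included Sept5, a septin that binds vesicles, at 75.5, 71.4 and 70.1 with pravastatin, against 36.3, 34.8 and 33.9 with vehicle (1.04, SE 0.07, adjusted p = 3.55e-08). Syn2, a synapsin, was at 98.9, 102 and 89.8 with pravastatin, against 43.5, 53.1 and 45.7 with vehicle (1.03, adjusted p = 4.68e-08). In neither of these did the groups overlap. Sept5 overlaps Gp1bb on the same strand, which rose too (1.29). The falls included Cplx1, a complexin (-0.66).
Of 18 neuron markers 7 rose and 1 fell, at a median of 0.19, and 4 rose without the culture term. Grin1, a subunit of the NMDA receptor, was at 20.9, 20.2 and 22.0 with pravastatin, against 8.52, 8.14 and 9.51 with vehicle (1.22, SE 0.10, adjusted p = 2.42e-07). Tubb3, a neuronal tubulin, was at 19.4, 20.4 and 20.5 with pravastatin, against 15.1, 12.8 and 12.6 with vehicle (0.56, adjusted p = 0.00139). The groups of both were apart. Syt1, the calcium sensor of vesicle fusion, was at 24.9, 13.3 and 9.52 with pravastatin, against 10.9, 6.02 and 3.66 with vehicle. It was higher in each culture (1.17, adjusted p = 1.72e-06), but its groups overlapped and the call was lost without the culture term (adjusted p = 0.0576). Neurod1, a transcription factor of neuron precursors, was at 1.82, 1.53 and 1.06 with pravastatin, against 3.37, 2.19 and 2.40 with vehicle (-0.68, adjusted p = 0.0184; 0.0641 without the culture term). The summed level of the neuron markers was 1101 to 1146 with pravastatin and 987 to 1074 with vehicle.

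The sterol element TCACNCCAC was searched in promoters of the genes called higher outside the lipid lists. Among 275 that have a listed promoter, 12 hold it on either strand (4.36%), beside 1.37% of the 9905 genes tested and 1.24% of all promoters in the table, and of 53 genes called lower 0 do. CCAAT was in 53.5% of the 275, beside 43.4%. Of 15 sterol synthesis genes with a promoter there, 1 holds TCACNCCAC and 14 hold CCAAT. Syt1 (chromosome 10, 109010926 to 109011225, minus strand), Ucp2 (chromosome 7, 100493108 to 100493407, plus strand) and Casp9 (chromosome 4, 141793362 to 141793661, plus strand) are shown as genes outside lipid synthesis that rose and hold it, with the match in capitals. Syt1 has a second promoter in the table without a match.
Syt1: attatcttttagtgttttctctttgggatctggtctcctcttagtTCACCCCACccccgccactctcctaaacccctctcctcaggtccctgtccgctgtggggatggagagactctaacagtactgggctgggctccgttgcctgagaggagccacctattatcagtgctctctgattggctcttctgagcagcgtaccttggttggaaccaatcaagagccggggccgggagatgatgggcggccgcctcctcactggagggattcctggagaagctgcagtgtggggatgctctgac
Ucp2: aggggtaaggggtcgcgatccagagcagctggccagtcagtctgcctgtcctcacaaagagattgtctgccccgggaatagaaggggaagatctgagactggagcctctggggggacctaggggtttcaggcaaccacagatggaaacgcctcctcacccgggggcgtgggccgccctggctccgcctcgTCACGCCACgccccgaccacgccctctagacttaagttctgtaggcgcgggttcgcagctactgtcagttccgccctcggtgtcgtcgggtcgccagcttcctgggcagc
Casp9: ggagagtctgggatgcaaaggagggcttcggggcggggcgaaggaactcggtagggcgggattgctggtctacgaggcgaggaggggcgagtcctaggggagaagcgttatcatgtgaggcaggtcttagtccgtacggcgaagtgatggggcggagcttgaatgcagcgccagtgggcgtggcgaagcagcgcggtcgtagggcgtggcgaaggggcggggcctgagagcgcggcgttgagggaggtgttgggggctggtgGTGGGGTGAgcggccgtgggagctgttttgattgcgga
Ucp2, an uncoupling protein of mitochondria, was at 7.90, 6.78 and 6.88 with pravastatin, against 3.02, 2.98 and 2.19 with vehicle (1.26, SE 0.15, adjusted p = 1.51e-05). Casp9, the initiator caspase of the mitochondrial death pathway, was at 32.2, 29.6 and 35.8 with pravastatin, against 20.7, 17.99 and 17.1 with vehicle (0.79, SE 0.10, adjusted p = 2.92e-05). Pravastatin and vehicle values were apart in both.

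Of 28 apoptosis genes 2 rose and 5 fell, against 10.1% and 8.78% of all genes, with a median of -0.05. Beside Casp9, Bmf, a BH3-only protein that promotes death, was at 5.77, 4.60 and 5.14 with pravastatin, against 2.72, 2.25 and 3.08 with vehicle (0.84, adjusted p = 0.0013). Bok, a member of the BCL2 family, was at 16.9, 19.4 and 21.6 with pravastatin, against 29.5, 30.3 and 28.1 with vehicle (-0.59, adjusted p = 0.000509), and Bid had -0.46. The groups of these genes did not overlap. Of 23 p53 targets 2 rose and 3 fell, against 10.1% and 8.78% of all genes, at a median of -0.09.
Of 34 genes of the unfolded protein and integrated stress responses 8 rose and 1 fell, against 10.1% of all genes that rose, at a median of 0.12, and 4 rose without the culture term. Atf4, the transcription factor of the integrated stress response, was at 722, 903 and 1009 with pravastatin, against 559, 563 and 619 with vehicle (0.59, SE 0.07, adjusted p = 3.71e-05). Xbp1, a transcription factor of the unfolded protein response, was at 55.7, 65.3 and 59.8 with pravastatin, against 40.6, 43.03 and 40.5 with vehicle (0.53, adjusted p = 0.000133). The groups of both were apart. Of 34 autophagy and lysosome genes 4 rose and 0 fell, against 10.1% and 8.78% of all genes. Among the rises was Map1lc3a, an LC3 gene, at 59.1, 59.3 and 57.7 with pravastatin, against 42.0, 39.5 and 36.4 with vehicle (0.58, adjusted p = 6.77e-05).
Genes of glutathione and antioxidant defence had 8 lower and 1 higher of 30, against 8.78% of all genes that fell, at a median of -0.10, and 2 lower without the culture term. Gss, glutathione synthetase, was at 13.5, 13.4 and 11.9 with pravastatin, against 20.7, 19.8 and 21.8 with vehicle (-0.67, SE 0.10, adjusted p = 0.000274). Its groups were apart, and it overlaps Acss2 on the other strand, which was at 912, 991 and 1061 with pravastatin, against 181, 165 and 167 with vehicle. Cat, catalase, was at 154, 166 and 167 with pravastatin, against 125, 125 and 119 with vehicle (0.40, adjusted p = 0.000694).

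Immediate early genes, which respond to signals within minutes, and Krüppel-like factors had positive log2 fold changes in 26 of 28 cases. Of the 28 tested 14 rose and Klf15 fell, with a median of 0.24, against 10.1% of all genes that rose. Fosb was at 75.1, 68.4 and 54.4 with pravastatin, against 32.1, 42.4 and 33.4 with vehicle (0.86, SE 0.10, adjusted p = 8.84e-06). The orphan receptor Nr4a2 was at 21.5, 17.6 and 15.7 with pravastatin, against 11.5, 9.42 and 10.0 with vehicle (0.79, adjusted p = 7.21e-05). Nr4a1 was at 120, 105 and 94.9 with pravastatin, against 78.2, 68.9 and 67.6 with vehicle (0.57, adjusted p = 2.83e-05). The groups were apart in all 3. The median was 0.25 in culture 1, 0.22 in culture 2 and 0.16 in culture 3, and 16 rose without culture 1 and 9 without culture 2. Without the culture term 8 rose, and 3, 3 and 6 when vehicle library 1, 2 or 3 was left out as well, 6 without pravastatin library 2 and 7 without pravastatin library 3. Without the trend 4 rose.
Of 23 genes of the Notch pathway tested 6 fell and 5 rose, 3 and 3 without the culture term. The list's median was 0.08, and it was 0.15, 0.08 and -0.10 in cultures 1, 2 and 3. The grouping by role that follows was made after the values were seen and was not tested. The falls were in targets and feedback genes of the pathway, Hey2 (-0.56), Nrarp (-0.49), Hes5 (-0.48), Lfng (-0.25), Hey1 (-0.24) and Hes1 (-0.21). Hes5, which keeps progenitors undifferentiated, was at 95.7, 103 and 85.2 with pravastatin, against 133, 126 and 136 with vehicle (adjusted p = 0.000409). The rises were in the ligands Dll3, Dll1 (0.33) and Dner (0.29), the receptor Notch2 (0.33) and Hes6 (0.22). Dll3 was at 61.9, 62.9 and 52.9 with pravastatin, against 48.0, 37.9 and 40.1 with vehicle (0.49, adjusted p = 0.000768). For both the groups did not overlap. Of 23 neural stem markers 4 rose and 4 fell, at a median of 0.01. Of 14 astrocyte markers 4 rose and 3 fell, and of 14 oligodendrocyte lineage markers 3 rose and 0 fell, with a summed level of 1803 to 2145 with pravastatin and 1619 to 1833 with vehicle.

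Matrix and membrane lipid genes had more rises than falls. Of 40 genes of the extracellular matrix 12 rose and 1 fell, at a median of 0.10, with 8 higher and 0 lower without the culture term. These are long genes, with a median exon length of 7.11 kb. In the 2 longest bins of all genes the median was 0.01 and 0.08, and 11.6% and 17.7% rose. The part of length in this result was not tested. Adamts9, a matrix protease, was at 130, 112 and 114 with pravastatin, against 80.2, 75.2 and 72.6 with vehicle (0.64, SE 0.07, adjusted p = 5.56e-06). Of 36 genes of phospholipid and triglyceride synthesis 12 rose and 1 fell, at a median of 0.12. Pcyt2, which makes CDP-ethanolamine, was at 344, 325 and 348 with pravastatin, against 140, 127 and 132 with vehicle (1.35, SE 0.06, adjusted p = 1.92e-10). Agpat4, an acyltransferase of phosphatidic acid synthesis, was at 53.8, 62.4 and 68.4 with pravastatin, against 26.6, 23.3 and 22.3 with vehicle (1.33, SE 0.10, adjusted p = 5.72e-08). Groups were apart in these 3 genes.
Of 27 YAP and SRF targets 4 rose and 3 fell, against 10.1% and 8.78% of all genes, at a median of 0.06. Axl, a receptor kinase, was at 23.2, 21.2 and 24.3 with pravastatin, against 9.70, 12.0 and 14.7 with vehicle (0.90, adjusted p = 2.65e-05), and Cnn2, a calponin, at 37.7, 34.1 and 30.6 with pravastatin, against 57.3, 52.8 and 48.2 with vehicle (-0.62, adjusted p = 3.00e-05). Both pairs of groups were apart. Of 19 genes of the isoprenoid branch and prenylation 1 rose and 2 fell (median -0.09), of 12 hedgehog genes 1 rose (0.14) and of 19 Wnt and BMP targets 1 rose (0.09). Of 22 ERK targets and feedback genes 5 rose and 2 fell (0.16), of 22 receptor tyrosine kinases and ligands 6 rose and 1 fell (0.12), and of 24 PPAR targets 3 rose and 3 fell (-0.06). Beside these lists, 10.1% of all genes rose and 8.78% fell. The receptor kinase list has a median exon length of 8.3 kb, and in the longest bin of all genes 17.7% rose.
Sterol synthesis had 21 higher of 21 tested, at a median of 1.56, fatty acid synthesis 21 higher and 1 lower of 33, at a median of 0.71, and sterol sensing and uptake 13 higher and 1 lower of 24, at 0.29. Among the genes inside the lipid lists with the largest rise were Acss2, which makes acetyl-CoA (2.52), Mvd of the mevalonate pathway (2.37), the sterol reductase Tm7sf2 (2.34) and 0610007P14Rik (2.104).

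The male response was set beside the female one in a single model of the 12 libraries. No difference between the male and the female effect passed among 15765 genes in limma (0 genes), with 1145 at an unadjusted p under 0.05 and a smallest adjusted p of 0.644, and edgeR likewise gave 0 genes, with 1120 at an unadjusted p under 0.05. So no change given here was shown to differ between male and female cultures. The lists of falling genes had lower medians in male cultures, at -0.38 against -0.06 for replication, -0.30 against -0.11 for mitosis, -0.40 against -0.08 for histones and -0.29 against -0.14 for the respiratory chain, male before female. In female cultures 0 genes of these 4 lists passed. Few genes of any kind passed as lower there, 105 of the 15221 genes tested in males, against 1336 in males. The male count is from the fit of the male libraries alone. At the female share few list genes would pass, so the count of 0 does not show that these lists differ between the sexes. The median of replication genes was -0.55, -0.37 and -0.24 in male cultures 1, 2 and 3, against -0.26, -0.09 and 0.10 in the female ones, so that the ranges overlapped. At an unadjusted p under 0.05 the difference between the sexes was reached by 24 of 38 replication genes, 11 of 30 mitotic genes, 34 of 57 histone genes and 16 of 76 respiratory chain genes, against 1116 of the 15221 genes tested in males. None of these passed after adjustment, and genes of a list are not independent of each other. Of the 73 genes called lower in males 66 were lower in direction in females, 36 in each of the 3 female cultures, and 11 passed there. Their median was -0.66 in males, where they were chosen, and -0.27 in females. Abca1 fell by 3.48 in males and by 2.78 in females on the log2 scale, and Apoe by 0.78 and by 0.93. The 439 genes called higher outside the lipid lists had a median of 0.79 in males and 0.51 in females, and 20 of them were lower in direction in females. The immediate early list had a median of 0.24 in males and 0.23 in females.

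**Figure D5:**
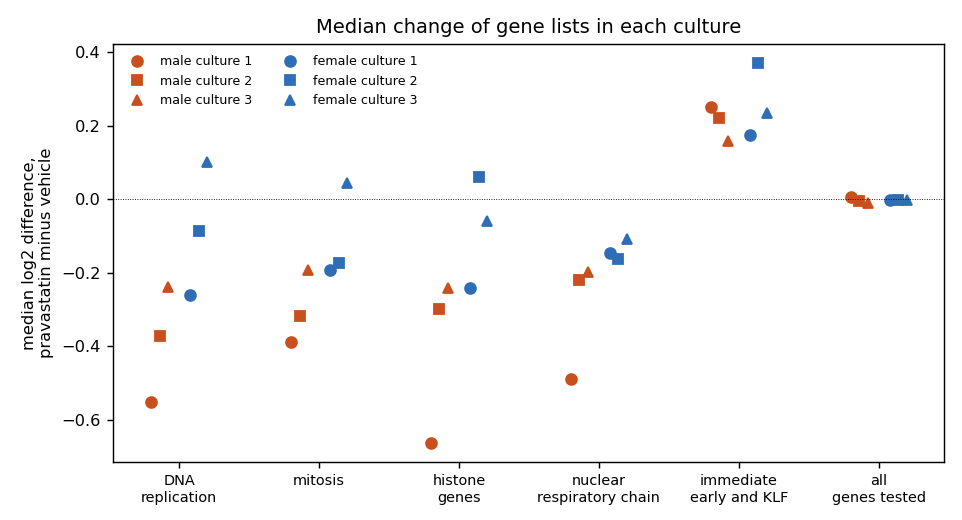
Median log2 difference, pravastatin minus vehicle, of 5 gene lists and of all genes tested, in each male culture (orange, left of each pair) and each female culture (blue, right), with a marker for each culture number. The 3 male medians lie below 0 for the replication, mitosis, histone and respiratory chain lists, deepest in male culture 1 (-0.55, -0.39, -0.66 and -0.49), and the male and female ranges of replication genes meet between -0.24 and -0.26.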

How the data were processed

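RNA was prepared with a stranded total RNA kit from 3 male and 3 female cultures, each with pravastatin and with vehicle. Reads of technical replicates were merged by the authors, who used TopHat2 2.1.1 on GRCm38, then Cufflinks and Cuffmerge for transcript models and HTSeq with default parameters for counts. The signal values deposited are counts scaled by a size factor for the library. Deposited columns of the authors' own fold changes, edgeR p-values and FDR, and group means, were not used. All signal values (100%) were whole reads within 0.001 read once divided by the value of 1 read, and 21 symbols turned into dates were restored.

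Genes above 1 in at least 3 of the 6 male libraries (15221 of 16106) were tested with limma 3.58.1 (R 4.3.3, lmFit and eBayes with trend, two-sided) on log2(value + 0.5) with culture as a block, and p was adjusted by Benjamini-Hochberg. Calls needed an adjusted p under 0.05 and 1.5-fold, and members of lists an adjusted p under 0.05 alone. All adjusted p-values of the report are from this fit unless another is named. Residuals of same-numbered pairs correlated at 0.186, 0.174 and 0.311 and those of other pairs at -0.204 to -0.014, and sample codes pair alike. The labels call the samples biological replicates. Alternatives were edgeR 4.0.16 and DESeq2 1.42.0 on the recovered reads (567 and 80 genes called higher and lower by edgeR), other pseudocounts, filters, scalings and left-out libraries. Exon lengths and overlaps are from GENCODE vM21. How strand was handled in counting is not spelled out in the sources used here.

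The male comparison, the gene lists and the rules were chosen with earlier results of these data known. Among genes moving one way in 3 of 3 cultures, the text names the 20 deepest falls, the 15 largest rises outside the lipid lists and 5 inside them, the 6 largest changes in value each way, and up to 4 members of each list by p. Pseudogenes and genes with model numbers may be counted instead. Abca5, Abca2, Kcnj2, Cplx1, Hey2, Hey1, Hes1, Lfng, Ung, Shmt1, Gmnn, Cdk4, Rbl1, Cdkn2a, Dner, Notch2, Hes6 and the overlapping genes Elovl1, Tnni3 and Gp1bb were named after their values were seen. Some genes the rule names are not reported here. The steps were tested on simulated data.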

Additional observations from a re-analysis of the deposited data

How the results depend on the processing

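With the 12 alternatives beside the fold threshold and the left-out libraries, all run on the male comparison, no gene named by size of change reversed its direction. Of 51 such genes 28 kept an adjusted p under 0.05 in every alternative that gave one. Without the replicate block 11 lost the call, without the variance trend 16, and DESeq2 gave an adjusted p for 35 of them and lost 5. The count of genes called higher (488) was 318 with DESeq2 and 1537 without a fold threshold, and 336 to 580 when a culture or library was left out. The count of genes called lower (73) was 36 with DESeq2, 177 with library size alone, 44 with a pseudocount of 1, 138 with values rescaled to library totals and 1336 without a fold threshold, and 29 to 112 when a culture or library was left out. With no replicate block 414 and 52 genes were called, and with values rescaled to nuclear protein-coding totals, chosen after seeing the data, 437 and 94.

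Without the variance trend the lists had 4 replication, 3 mitosis, 1 histone and 1 respiratory chain genes lower and 4 immediate early and KLF genes higher. With no replicate block the respiratory chain had 27 lower and the immediate early list 8 higher. When a culture or library was left out, the counts ran from 15 to 33 for replication, 6 to 26 for mitosis, 7 to 50 for histones, 1 to 51 for the respiratory chain and 3 to 16 for the immediate early list. The fits without 1 library had no block and fewer samples, and the lone pair's spread was pooled with the other group. The interaction count was 0 in each of its alternatives, with 1145 genes at an unadjusted p under 0.05 in limma, 138 with no replicate block, 1120 in edgeR and 369 without female cultures 2 and 3. The cause of these shifts was not tested. With 3 cultures and 13353619 to 18422845 reads a library, genes near a value of 1 rest on few reads, and falls of under 1.5-fold rest on the pooled variance model.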

Other observations

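Transcripts outside the coding genes differed by class in their median change in male cultures. Of 616 genes of the annotation class TEC, loci awaiting experimental evidence, 30 were called higher and 0 lower, against 3.21% and 0.480% of all genes tested. Their median log2 fold change was 0.24, beside -0.01 for 12358 protein-coding genes. The median was 0.30 for 78 sense intronic genes, 0.10 for 286 lincRNAs and 0.10 for 232 antisense genes. None of these 3 classes had a gene called lower, but few would be at the share of 0.480% over all genes. Processed pseudogenes went the other way in median, at -0.13 over 1139 genes. Of these 10 were called higher and 7 lower, beside the same shares of 3.21% and 0.480%.

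The long nuclear RNA Malat1 was at 19969, 16418 and 15216 with pravastatin, against 11911, 14504 and 12603 with vehicle in cultures 1, 2 and 3 (log2 fold change 0.40, adjusted p = 0.0185 from limma, and 0.0926 without the culture term). The lincRNA Gm26917 was at 22838, 17489 and 16231 with pravastatin, against 16302, 13167 and 12997 with vehicle, where the groups overlapped (0.41, adjusted p = 0.0067, and 0.119 without the culture term). Both differences were largest in culture 1, whose pravastatin library also had the highest mitochondrial share, 7.77%.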
